A study of Homo sapiens with 15 samples.

Results

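Baseline expression of PSN-1, a permanent line of human PDAC cells (PDAC: pancreatic ductal adenocarcinoma), was described from its control cultures, 5 of the 15 RNA-seq libraries of the series. Libraries were chosen by label. The siControl group (replicates 1, 2 and 3) had been transfected with a control siRNA, and the DMSO group (replicates 1 and 3) had received DMSO, the solvent of a drug experiment. Both kinds of culture were grown in RPMI with 10% serum and antibiotics and were collected at 72 hours. The other groups, used only where named, received siRNA against MondoA (siMondoA) or its partner MLX (siMLX), or the MondoA inhibitor SBI-477, with 3 libraries each. The siRNA and drug experiments were deposited as separate tables, so transfection, solvent, sequencing depth and experiment cannot be told apart in any difference between siControl and DMSO. None of the cultures used here is listed as free of both transfection and solvent. The labels do not say whether replicates came from separate cultures. The p-values below therefore cover only the spread seen among these libraries, and that spread may be technical.

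PDAC arises from the exocrine pancreas, whose ducts express keratins and the transcription factor SOX9, and its cells are commonly sorted into a classical state, with mucins and gut-like secreted proteins, and a basal-like state, with squamous keratins. MYC, a driver of growth, shares a network of dimerising DNA-binding proteins with MondoA (gene symbol MLXIP) and MLX, which sense sugar phosphates and switch on TXNIP, a brake on glucose uptake.

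Levels are CPM, read counts divided by a library total that was scaled with the TMM method. Where genes are compared with each other, the level was divided by transcript length and rescaled to the same total in every library, here called the level per length. Differences are log2 values, DMSO minus siControl, with their standard error. A gene is called higher in a group where its adjusted p was under 0.05 in edgeR's quasi-likelihood fit, with Benjamini-Hochberg adjustment over the 13602 genes tested. A gene is called single-locus where at least 95% of the 25-base words in its reference transcript occur in no other annotated gene. The reference transcript is the annotated transcript that gave the gene's length, and 25 bases is the read length. Words found only in a gene's other transcripts were not scored. Sequencing gave 11257452, 12876546 and 14731691 counts in siControl 1, 2 and 3, and 29177289 and 30480362 counts in DMSO 1 and 3. A level of 3 counts, taken as the floor for counting error only, was 0.214 to 0.286 CPM in siControl and 0.088 and 0.0948 CPM in DMSO. Across genes, log2 CPM correlated at 0.987 to 0.991 between siControl libraries, at 0.993 between DMSO 1 and 3, and at 0.902 to 0.928 between the groups. Genes are not independent replicates, and these values are descriptions.

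DMSO replicate 2 was left out because its label is in doubt. The authors' deposited drug table gives a log2 fold change per gene. A refit with the labels as given differed from it by a median of 0.195 over 13086 genes, and a refit with replicate 2 of DMSO and of SBI-477 exchanged by 0.00446. On the scale of all 15 libraries, TXNIP stood at 134, 36.2 and 185 CPM in the libraries labelled DMSO 1, 2 and 3, and PCK1 at 47.9, 5.77 and 55.3 CPM. In the libraries labelled SBI-477 1, 2 and 3, TXNIP was at 69, 110 and 38.1 CPM and PCK1 at 5.69, 15.3 and 1.06 CPM. PCK1 in the library labelled SBI-477 2 was thus also below DMSO 1 and 3. Values for the library labelled DMSO 2 enter nothing else here, except where they are named.

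The tables differed most for genes that share sequence with other annotated genes. Words were sought in annotated transcripts and not in the genome, so genes that overlap each other also share words. Among 478 genes with 0 to 20% of their words unique, 33.1% differed by over 4-fold between the groups, and among the 7197 single-locus genes 2.78% did. Ribosomal protein genes, which have many processed copies, took 9.86 to 11.3% of counts in siControl and 3.96 and 4.11% in DMSO. EEF1A1, the translation elongation factor, was at 18830.0, 19894 and 17419.5 CPM in siControl and 918 and 748 CPM in DMSO, with no overlap between the groups. Of 77 cytosolic ribosomal protein genes, none single-locus, 73 were called higher in siControl and 0 in DMSO (median -1.88), where 24.6% of all genes tested were higher in DMSO and 24% in siControl, and the median of all genes was 0.01. The counts of each list below are to be read against these shares. RPS27, a small-subunit protein, was at 1086, 1169.9 and 991 CPM in siControl and 7.71 and 6.6 CPM in DMSO. In the opposite direction, entries of gene copies had counts in DMSO alone: UQCRBP1, a pseudogene of a respiratory chain gene, was at 0, 0 and 0 CPM in siControl and 20.1 and 20.6 CPM in DMSO.

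A pair of microRNA entries shows what the shared sequence looks like. MIR4426 (chromosome 1, 192716328 to 192716390, plus strand) had no count in siControl and was at 292 and 314 CPM in DMSO. MIR3654 (chromosome 7, 133034860 to 133034915, minus strand) likewise had none in siControl and was at 166 and 185 CPM in DMSO. Their hairpins are given 5′ to 3′ from RefSeq on GRCh38.p14, with capitals for the longest stretch that is identical in a transcript of a protein gene, which is the ribosomal fusion gene RPS27A for MIR4426 and the elongation factor gene EEF1G for MIR3654.
MIR4426: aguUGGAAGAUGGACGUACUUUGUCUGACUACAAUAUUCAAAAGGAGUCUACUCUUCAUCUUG
MIR3654: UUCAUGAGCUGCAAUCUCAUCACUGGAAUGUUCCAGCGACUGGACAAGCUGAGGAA
The stretch holds 60 of 63 bases for MIR4426 and all 56 bases for MIR3654. RPS27A was at 1625, 1875 and 1557 CPM in siControl and 265 and 237 CPM in DMSO and EEF1G at 2654, 2560.2 and 2236 CPM in siControl and 401 and 427 CPM in DMSO, so the protein genes were lower where the microRNA entries had counts. A 25-base read from these stretches has more than 1 place in the genome, and the sources used here do not give which place each table used. MIR5047, whose 100 bases all lie in transcripts of the RNA helicase gene DDX5, had none in siControl and was at 23 and 22.4 CPM in DMSO. There the host was not lower in DMSO, as DDX5 was at 578, 663 and 645 CPM in siControl and 950.0 and 864 CPM in DMSO (0.52 ± 0.11, edgeR adjusted p = 0.00162).

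**Figure D1:**
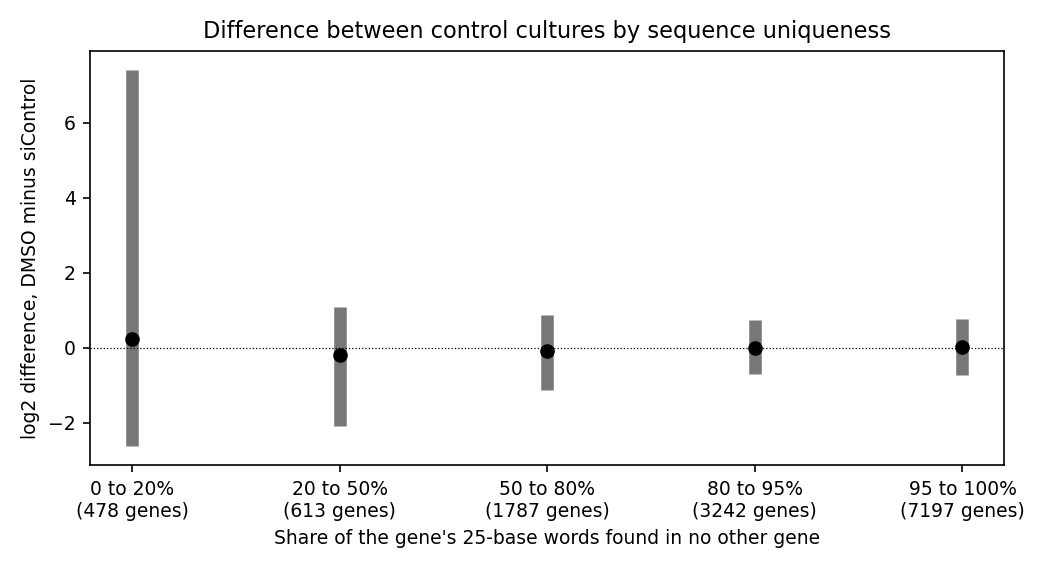
Log2 difference between DMSO and siControl (vertical axis) for genes grouped by the share of their 25-base words found in no other gene (horizontal axis). Points are medians and bars run from the 10th to the 90th percentile of genes. The bar spans -2.63 to 7.41 where 0 to 20% of words are unique and -0.73 to 0.78 where 95 to 100% are.

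Over 15 libraries, 2 entries had at least 10 CPM in all 9 siRNA libraries and under 3 counts in all 6 drug libraries. These were H19, an imprinted long non-coding RNA, and MTRNR2L9, a nuclear copy of mitochondrial sequence. H19 was at 94, 81.7 and 74.8 CPM in siControl and had no count in either DMSO library. With the reverse pattern there were 8 entries, among them the 3 microRNAs above and UQCRBP1, and no single-locus protein gene followed either pattern. For that reason differences below are led by single-locus genes, and the share of unique words is given where a named gene falls short. How far the remaining differences follow from the way each table was made was not tested.

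Of 26380 genes in both tables (a few sex-linked ones left out), 11847 (44.9%) were at 1 CPM or more in all 5 control libraries and 8914 at 10 CPM or more. Another 9460 (35.9%) stayed under 3 counts in each of the 5, 6812 of them with no count at all. Of 19092 protein-coding genes, 11341 (59.4%) were expressed and 4621 (24.2%) omitted by these rules. Few genes were split by culture: 198 reached 1 CPM in all siControl libraries alone and 337 in both DMSO libraries alone. Of the 9460 omitted genes, CSF3, a granulocyte growth factor gene, reached 1 CPM in all 3 siMondoA libraries (1.97, 1.26 and 1.52 CPM), CHRNA4, a nicotinic receptor subunit gene, did so in siMLX (2.16, 5.82 and 1.69 CPM), and none did in SBI-477.

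The most abundant messages per length, with ribosomal protein genes, mitochondrially encoded genes and their nuclear MTRNR2L copies left out, were those of a secreted protease inhibitor, the cytoskeleton, iron storage, translation and glycolysis. TIMP1, which inhibits matrix metalloproteinases, led these at 8182 per length over the 5 libraries, while the copy MTRNR2L2 was at 10217 per length, nearly all of it from siControl. TIMP1 was at 2452, 2453 and 2183 CPM in siControl and 4160.5 and 5204 CPM in DMSO. It was higher in both DMSO libraries than in any siControl library (0.98 ± 0.13, edgeR adjusted p = 3.84e-05). Next came the actin-binding TMSB4X (5869 per length), the ferritin light chain FTL (5762), EEF1A1, GAPDH (4829) and, through the DMSO libraries alone, MIR4426. TMSB10, ACTB, GNB2L1, ACTG1, PKM, B2M, MIR3654, NPM1 and LDHA made up the rest of the leading 15. With exon unions in place of single transcripts as the length, 10 of these 15 stayed among the leading 15. Only TIMP1, GNB2L1 and B2M of the 15 are single-locus, so the levels of the others carry the uncertainty described above.

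**Figure D2:**
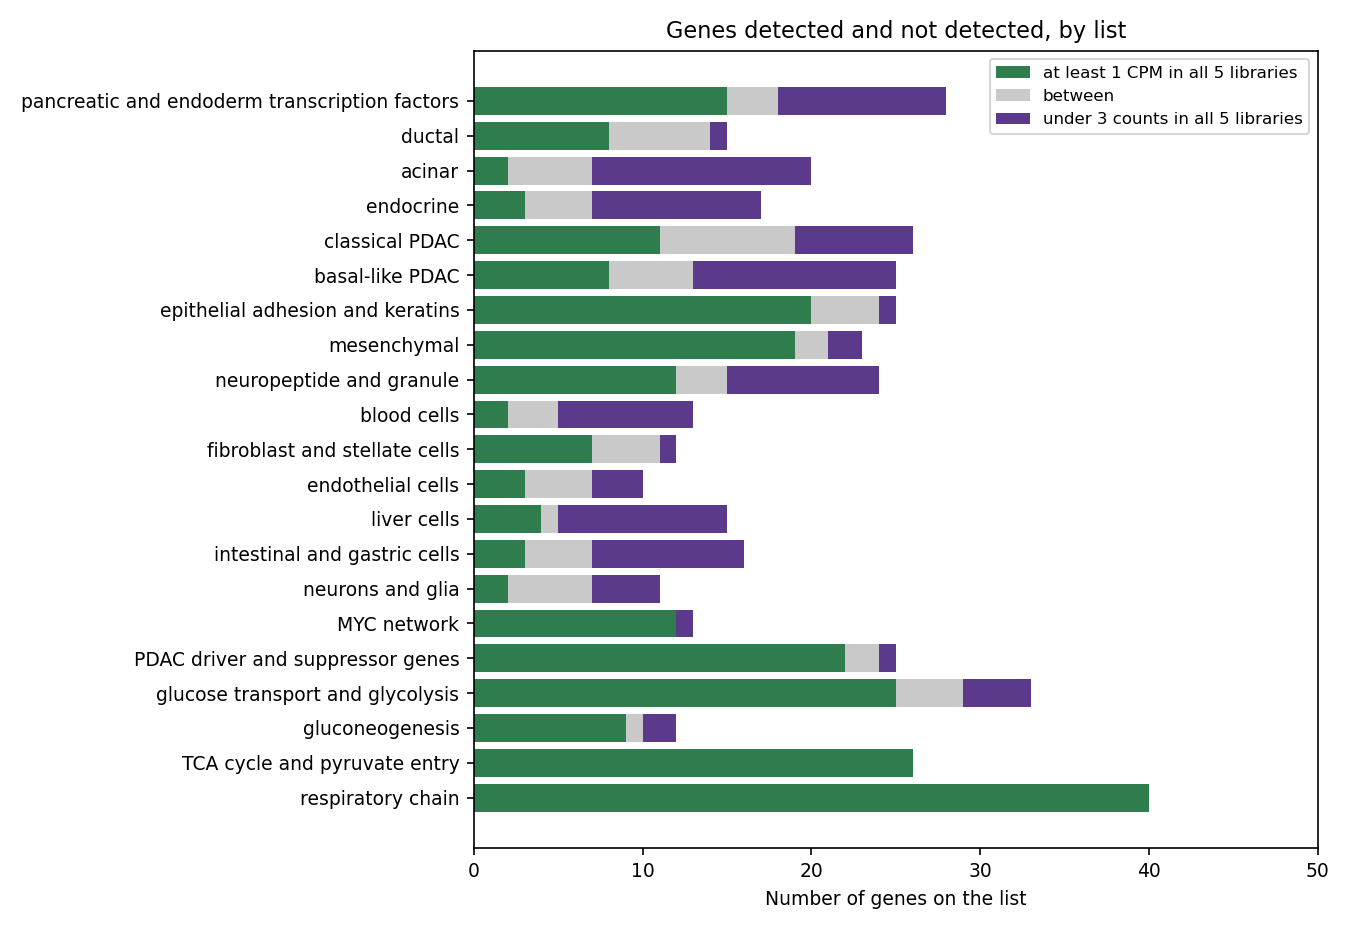
Number of genes on each list (horizontal axis) at 1 CPM or more in all 5 control libraries (green), under 3 counts in all 5 (purple) or between (grey). All 40 respiratory chain genes are green, and 13 of 20 acinar genes are purple.

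PSN-1 expressed an epithelial keratin set together with mesenchymal genes. Of 25 genes of epithelial adhesion and keratins, 20 were at 1 CPM or more in all 5 libraries and 1, the repressor gene OVOL1, was under 3 counts in all. KRT8, KRT18, KRT7 and KRT19, the keratins of simple ducts, led at 1054, 929.8, 438 and 267 per length, with 26.9 to 82.9% of their words unique. VIM, the mesenchymal intermediate filament, was as abundant at 1172 per length and was at 1492, 1270.2 and 1089.6 CPM in siControl and 1005 and 1102 CPM in DMSO. EPCAM, an epithelial adhesion protein, ranged over 28.6 to 44.5 CPM. The cadherins were low: CDH1, of epithelial junctions, was at 9.81, 4.6 and 4.92 CPM in siControl and 1.04 and 3.61 CPM in DMSO (-1.45 ± 0.42, edgeR adjusted p = 0.011; -0.82 and not called without DMSO 1, and -2.61 without DMSO 3), and CDH2, its neural and mesenchymal relative, at 12.1, 7.03 and 7.13 CPM in siControl and 1.48 and 3.4 CPM in DMSO (-1.83 ± 0.33, edgeR adjusted p = 0.000393; -2.55 without DMSO 3). Both cadherins were thus higher in siControl. ZEB1, a repressor of epithelial genes, was at 28.5 to 31.9 CPM, while the epithelial splicing factor ESRP2 was at 23.1, 17.7 and 21.5 CPM in siControl and 35.8 and 35.4 CPM in DMSO, higher in DMSO (0.77 ± 0.13, edgeR adjusted p = 0.000237). Of 21 epithelial genes tested 5 were higher in DMSO and 8 in siControl. The balance turned with scaling by library totals (7 and 4) and without siControl 1 (7 and 6), while the counts were 4 and 5 without DMSO 1 and 3 and 5 without DMSO 3. Of 23 mesenchymal genes, 19 were at 1 CPM or more in all 5 libraries, and TWIST1 and TWIST2 were under 3 counts.

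Pancreatic transcription factors were present in part. Of 28 transcription factors of the pancreas and endoderm, 15 were expressed and 10 omitted. PDX1 and PTF1A, needed to form the pancreas, had no count, and neither had SOX17. By contrast GATA6 was at 53.5 to 68.6 CPM, GATA4 at 22.2 to 32.1 CPM, HNF4A at 8.62 to 11.9 CPM, FOXA1 at 11 to 17.1 CPM and FOXA2 at 18.2 to 24.2 CPM, all endoderm factors. None of these passed the test between cultures. SOX9, the duct and progenitor factor, was at 104, 90.4 and 93.9 CPM in siControl and 55.6 and 62.5 CPM in DMSO, higher in siControl without overlap (-0.71 ± 0.11, edgeR adjusted p = 0.000121). NR5A2, a nuclear receptor of exocrine cells, went the other way at 30.3, 31.6 and 29 CPM in siControl and 55.3 and 57 CPM in DMSO (0.88 ± 0.11, edgeR adjusted p = 1.41e-05). Of 15 such factors tested, 1 was higher in DMSO and 5 in siControl, 3 without DMSO 1, and the list's median of -0.20 was 0.04 with scaling by library totals and 0.00 without siControl 1.

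Secretory products of mature pancreas were mostly missing. Among 20 acinar genes, 13 were under 3 counts in all libraries, including the amylase AMY2A, the lipase PNLIP and the elastases CELA2A and CELA3A. Of the rest, trypsinogens were the most abundant per length. PRSS1 was at 83.5, 43.7 and 31.1 CPM in siControl and 7.14 and 14.1 CPM in DMSO and PRSS3 at 21.2, 18.5 and 23.4 CPM in siControl and 42.1 and 45.6 CPM in DMSO. With 73.2% and 69.7% of words unique, these near copies moved in opposite directions between the groups, PRSS1 being higher in siControl (-2.31 ± 0.34, edgeR adjusted p = 7.17e-05) and PRSS3 in DMSO (1.05 ± 0.13, edgeR adjusted p = 1.09e-05). Of 4 acinar genes tested, these included, 2 were higher in DMSO and 2 in siControl. The counts were 1 and 2 without siControl 2 and in the fit of all 15 libraries. Of 17 endocrine genes, 10 were under 3 counts, among them INS, GCG, SST and CHGA. PCSK1, a protease that matures peptide hormones, was present at 12.1, 16.6 and 13.7 CPM in siControl and 2.37 and 2.82 CPM in DMSO (-2.45 ± 0.21, edgeR adjusted p = 3.83e-07), higher in siControl.

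Markers of both PDAC states were present in part. Of 26 classical genes 11 were expressed and 7 omitted, and of 25 basal-like genes 8 were expressed and 12 omitted, the latter including the squamous keratins KRT5, KRT14, KRT6A and KRT17. ANXA10, an annexin of gastric-type epithelium, led the classical list at 589 per length and was at 299, 361 and 346 CPM in siControl and 457 and 462 CPM in DMSO. TFF3, a secreted trefoil peptide, was at 56.9, 37.3 and 29.3 CPM in siControl and 7.68 and 11.7 CPM in DMSO, and AGR2, a folding factor for mucins, at 243, 89.4 and 73.4 CPM in siControl and 11.8 and 24.6 CPM in DMSO. Both were higher in siControl (-2.08 ± 0.24 and -2.90 ± 0.43, edgeR adjusted p 7.93e-06 and 7.09e-05), and AGR2 was high in siControl 1. The AGR2 difference was -2.17 without siControl 1 and -3.53 without DMSO 3. MUC5AC, a gastric mucin, was at 227, 167 and 286 CPM in siControl and 76.3 and 114 CPM in DMSO (-1.26 ± 0.20, edgeR adjusted p = 0.000121), and with the library labelled DMSO 2 included the value was -0.40 and not called. In all, 2 of 12 classical genes tested were higher in DMSO and 6 in siControl (median -0.65), beside 24.6% and 24% of all genes. The median was -0.24 without siControl 1, where 4 were higher in DMSO, -0.43 without siControl 2, -0.35 without DMSO 1 and -1.39 without DMSO 3. Among basal-like genes TP63, the squamous master factor, was at 10.4, 13.1 and 7.2 CPM in siControl and 0.885 and 2.35 CPM in DMSO (-2.65 ± 0.35, edgeR adjusted p = 2.5e-05), again higher in siControl (-3.52 without DMSO 3), and 4 of 10 tested were higher in DMSO and 3 in siControl.

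Defining markers of blood and liver cells were mostly at or near 0, while more of the fibroblast and endothelial markers were detected. Of 13 blood cell genes 8 were under 3 counts in all 5 libraries, among them PTPRC, CD3E and MS4A1. The list's summed level was 48.0 to 56.1 CPM in siControl and 42.4 to 48.8 CPM in DMSO, nearly all from CD14 and CD68, the latter with 1.19% of words unique. Of 10 endothelial genes 3 were under 3 counts, and KDR, a receptor for VEGF, was at 7.43, 7.28 and 9.19 CPM in siControl and 17.6 and 19.8 CPM in DMSO, higher in DMSO. PECAM1, an endothelial adhesion protein, went the other way at 14.8, 19.6 and 14.3 CPM in siControl and 8.09 and 11.2 CPM in DMSO (-0.75 ± 0.19, edgeR adjusted p = 0.00469, a call lost without DMSO 1). Of 3 endothelial genes tested, 1 was higher in DMSO and 1 in siControl. The fibroblast marker THY1 was under 3 counts, yet COL3A1, a fibrillar collagen, was at 433, 398 and 364 CPM in siControl and 88.8 and 179 CPM in DMSO and LUM, a matrix proteoglycan, at 215, 166 and 133 CPM in siControl and 24.8 and 45.1 CPM in DMSO. Both were higher in siControl (-1.58 ± 0.21 and -2.30 ± 0.23, edgeR adjusted p 2.94e-05 and 1.68e-06). Without DMSO 3 the COL3A1 difference was -2.17. The list as a whole was divided, with 4 of 9 tested genes higher in DMSO and 4 in siControl (median 0.39, and 0.22 and 0.23 without siControl 1 and without DMSO 3, where 3 and 2 were higher in DMSO; 1 was in the fit of all 15 libraries). PTX3, a secreted pentraxin, was higher in DMSO at 55.5, 66.3 and 51.2 CPM in siControl and 88.6 and 75 CPM in DMSO (0.49 ± 0.12, edgeR adjusted p = 0.00446, a call lost without DMSO 1). The 12 fibroblast and stellate genes summed to 620.5 to 776 CPM in siControl and 262 to 376 CPM in DMSO. Of 15 liver genes 10 were under 3 counts, ALB, APOB, TTR and AFP among them. The 4 that were expressed were all higher in siControl: FGA, FGB and FGG, the fibrinogen chains, and SERPINA1, an inhibitor of neutrophil elastase. FGG was at 153, 171 and 143 CPM in siControl and 20.4 and 43.1 CPM in DMSO (-2.30 ± 0.23, edgeR adjusted p = 1.52e-06) and SERPINA1 at 179.7, 164 and 120.3 CPM in siControl and 56.2 and 106 CPM in DMSO (-0.94 ± 0.21, edgeR adjusted p = 0.00235). The SERPINA1 difference was -0.55 without DMSO 1, and without DMSO 3 those of FGA, FGB and FGG were -3.72, -2.20 and -2.94. All these libraries came from cultures of the PSN-1 line. In bulk RNA, fewer cells expressing a gene and less RNA per cell cannot be told apart. The part of either in these differences was not tested.

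The neuropeptide NTS stood out among secreted products. NTS (chromosome 12, 85874295 to 85882992, plus strand) encodes neurotensin, a gut and brain peptide. Its level was 1596, 2784 and 2161 CPM in siControl and 721 and 791 CPM in DMSO, or 2625 per length over the 5 libraries. Every siControl library was above both DMSO libraries, by a log2 difference of -1.54 ± 0.19 (edgeR adjusted p = 1.16e-05). Its receptor NTSR1 was expressed too, at 151, 124 and 149 CPM in siControl and 154 and 171 CPM in DMSO, and did not pass the test (0.19 ± 0.11, edgeR adjusted p = 0.177), while NTSR2 was under 3 counts. CPE, the carboxypeptidase that trims peptide hormones, was at 484, 554 and 442 CPM in siControl and 120.0 and 141 CPM in DMSO (-1.93 ± 0.13, edgeR adjusted p = 2.74e-08), higher in siControl like PCSK1 above. VGF, a granule protein, was at 38.6, 58.9 and 83.2 CPM in siControl and 51.6 and 35 CPM in DMSO, with overlap. Of 24 neuropeptide and granule genes 12 were expressed and 9 omitted, and of 13 tested 2 were higher in DMSO (1 without siControl 2 or either DMSO library) and 6 in siControl (median -0.49), or 3 and 4 with library totals (median -0.26). The 250 bases before the NTS start (RefSeq, GRCh38.p14, chr12:85874045-85874294, plus strand) are shown because NTS is the most abundant message of this list per length. Capitals mark TGACATCA, a variant of the cAMP response element searched on both strands, which begins 51 bases before the start and occurs in 669 (2.45%) of 27305 promoters of that length.
NTS: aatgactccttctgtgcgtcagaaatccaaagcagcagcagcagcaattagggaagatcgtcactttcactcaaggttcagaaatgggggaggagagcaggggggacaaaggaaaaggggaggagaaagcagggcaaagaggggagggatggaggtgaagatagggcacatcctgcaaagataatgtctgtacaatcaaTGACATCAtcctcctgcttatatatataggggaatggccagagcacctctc

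**Figure D3:**
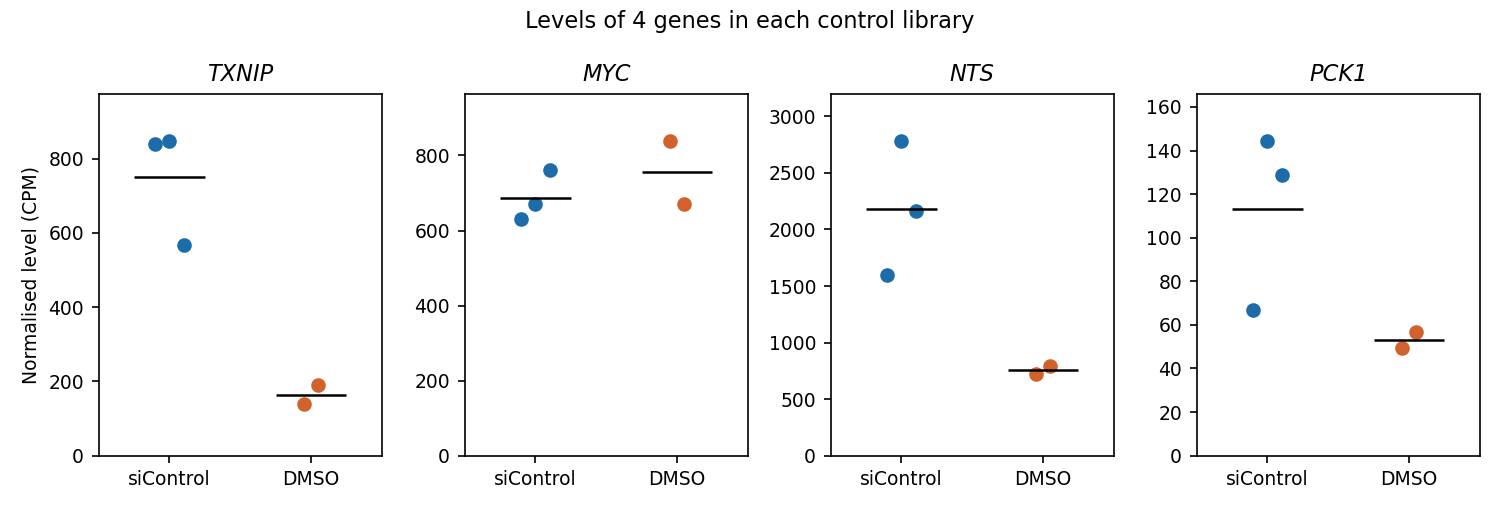
Level in CPM (vertical axis) of TXNIP, MYC, NTS and PCK1 in each siControl (blue) and DMSO (orange) library, with lines at group means. TXNIP, NTS and PCK1 do not overlap between the groups, and MYC does.

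PDAC driver genes were expressed with clear gaps. Of 25 driver and suppressor genes 22 were at 1 CPM or more in all 5 libraries. SMAD4, which carries TGF-beta signals to the nucleus, had 1 count in DMSO 1 and none in the other libraries. A count of 0 allows up to 0.286 CPM in the shallowest library. TGFBR2, the receptor upstream of it, was abundant at 957, 974 and 834 CPM in siControl and 359 and 453 CPM in DMSO and was higher in siControl without overlap (-1.19 ± 0.13, edgeR adjusted p = 5.28e-06). Of 23 tested, 3 were higher in DMSO and 8 in siControl, beside 24.6% and 24% of all genes. The list's median of -0.22 became 0.02 with scaling by library totals, where 7 were higher in DMSO and 4 in siControl.

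On chromosome 9p21, the region around CDKN2A, the level changed from gene to gene. CDKN2A (chromosome 9, 21967753 to 21995301, minus strand), which encodes p16 and p14ARF, was near the floor at 0.667, 0.753 and 0.855 CPM in siControl and 0.821 and 0.352 CPM in DMSO. Its neighbour MTAP (chromosome 9, 21802543 to 21937651, plus strand), an enzyme of methionine salvage, was at 0.286, 1.09 and 1.21 CPM in siControl and 1.45 and 1.38 CPM in DMSO. CDKN2B (chromosome 9, 22002903 to 22009363, minus strand), which encodes p15, was far above both at 188, 184 and 153 CPM in siControl and 88.7 and 101 CPM in DMSO and was higher in siControl (-0.89 ± 0.12, edgeR adjusted p = 3.15e-05). IFNB1, ELAVL2 and IZUMO3 were under 3 counts in all libraries, and FOCAD, KLHL9, MLLT3 and TUSC1 ranged over 42.1 to 46.6, 32.1 to 51.5, 22.2 to 38.1 and 11.3 to 17.5 CPM. KLHL9 and MLLT3 were higher in siControl (-0.62 ± 0.11 and -0.63 ± 0.12, edgeR adjusted p 0.000321 and 0.000722). Of the 14 genes of the list 6 were at 1 CPM or more in all 5 libraries. Of 10 tested, 2 were higher in DMSO and 3 in siControl (median -0.15), beside 24.6% and 24% of all genes. The counts were 1 and 3 without siControl 3 and in the fit of all 15 libraries.

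MYC (chromosome 8, 127735434 to 127741434, plus strand) led its network at 646 per length. It was at 630.3, 670.1 and 761 CPM in siControl and 839 and 672 CPM in DMSO, or 687 ± 67 CPM (SD, n = 3) in siControl and 755 ± 119 CPM (SD, n = 2) in DMSO. The groups overlapped, and the difference was 0.13 ± 0.13 (edgeR adjusted p = 0.425). With scaling by library totals it was 0.37 and called, and without DMSO 1 it was -0.04. Its partner MAX was at 64.1 to 74.1 CPM, MLX at 57.3 to 63.5 CPM and MLXIP at 71 to 96.9 CPM, none of them called between the groups. MLXIPL, the MondoA relative of liver and fat, was low at 3.62 to 7.48 CPM, and MYCN had at most 1 count. Of 12 members tested 0 were higher in DMSO and 3 in siControl: the MYC antagonists MXD4, MXI1 and MXD1. This share is near the 24% of all genes that were higher in siControl. MXD4 was at 157, 126 and 124 CPM in siControl and 34.2 and 44.8 CPM in DMSO (-1.79 ± 0.14, edgeR adjusted p = 1.8e-07) and MXI1 at 56, 71.1 and 62.6 CPM in siControl and 42.7 and 40.4 CPM in DMSO (-0.62 ± 0.12, edgeR adjusted p = 0.000698). MXD1 was at 15.7, 13.7 and 13 CPM in siControl and 10.4 and 10.7 CPM in DMSO (-0.43 ± 0.16, edgeR adjusted p = 0.0386), a call lost without siControl 1 or 2 or either DMSO library. Without siControl 3 the counts were 1 and 4. The median of the network was -0.10, and 0.14 with scaling by library totals, where 4 were higher in DMSO.

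TXNIP, the best known MondoA target, differed most among the markers. TXNIP (chromosome 1, 145992435 to 145996600, minus strand) had 839.6, 848 and 567 CPM in siControl and 138 and 189.9 CPM in DMSO, or 752 ± 159.9 CPM (SD, n = 3) in siControl and 164 ± 36.7 CPM (SD, n = 2) in DMSO. All siControl libraries lay above both DMSO libraries, with a difference of -2.21 ± 0.19 (edgeR adjusted p = 2.86e-07) that ran from -2.63 to -1.96 over the alternative settings. ARRDC4 (chromosome 15, 97960698 to 97973838, plus strand), its arrestin-like relative, was at 52.8, 67.2 and 51.5 CPM in siControl and 14.7 and 17.4 CPM in DMSO (-1.84 ± 0.15, edgeR adjusted p = 1.52e-07). ARRDC3, a further member of the family, was at 326, 415 and 279.8 CPM in siControl and 96.2 and 119.6 CPM in DMSO (-1.67 ± 0.16, edgeR adjusted p = 1.05e-06). HBP1, a cell cycle repressor, was at 98.5, 104 and 84 CPM in siControl and 26.9 and 37.1 CPM in DMSO (-1.59 ± 0.15, edgeR adjusted p = 7.62e-07; 66.1% of words unique). These 4 genes were higher in siControl without overlap. Over the whole list the calls were split: of 14 MondoA and ChREBP targets tested 3 were higher in DMSO and 6 in siControl. The median was -0.15, and 0.09 with scaling by library totals, where 6 were higher in DMSO and 5 in siControl. ACLY, which makes acetyl-CoA for fat synthesis, was at 369, 371 and 427 CPM in siControl and 502 and 476 CPM in DMSO (0.32 ± 0.11, edgeR adjusted p = 0.0249), a call lost without siControl 1 or 2 or either DMSO library.

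The promoters of TXNIP and ARRDC4 are shown because these genes moved together. Each is the 250 bases before the RefSeq start, 5′ to 3′, on GRCh38.p14 (TXNIP chr1:145996580-145996829, minus strand, and ARRDC4 chr15:97960453-97960702, plus strand). The positions given above for these genes are from GENCODE and begin further upstream, inside the printed bases. Capitals mark, in TXNIP, a match to CACGNG and CNCGNG parted by NNNNN, the spaced pair of E-boxes of a carbohydrate response element, and in ARRDC4 a match to the E-box CACGTG, searched on both strands. Matches are descriptions of sequence only. Each promoter was marked for its own motif only, and a motif common to both was not examined.
TXNIP: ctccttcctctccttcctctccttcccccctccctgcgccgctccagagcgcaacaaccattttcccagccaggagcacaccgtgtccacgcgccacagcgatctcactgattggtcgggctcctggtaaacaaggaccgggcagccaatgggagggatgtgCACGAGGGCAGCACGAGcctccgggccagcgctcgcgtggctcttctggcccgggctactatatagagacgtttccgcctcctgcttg
ARRDC4: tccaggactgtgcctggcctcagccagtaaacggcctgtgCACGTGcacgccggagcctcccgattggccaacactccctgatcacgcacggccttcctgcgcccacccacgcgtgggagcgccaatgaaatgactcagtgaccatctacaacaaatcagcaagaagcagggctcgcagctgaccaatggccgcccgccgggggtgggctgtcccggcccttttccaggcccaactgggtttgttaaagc
The TXNIP match begins 88 bases before the start, and its motif occurs in 120 (0.439%) of 27305 promoters of that length. The ARRDC4 match begins 210 bases before the start, and its motif occurs in 1772 (6.49%).

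Glycolysis genes and the whole respiratory chain list were expressed. Of 33 genes of glucose transport and glycolysis 25 were expressed, led by GAPDH, PKM, LDHA and ENO1 (4829, 3192, 2912 and 2774 per length). The glucose transporter SLC2A1 was at 185 to 210.1 CPM. Isozymes of other tissues were missing: PKLR of liver and red cells, HK3 of blood cells and LDHB, the heart-type lactate dehydrogenase, were under 3 counts. All 26 genes of the TCA cycle and pyruvate entry and all 40 of the respiratory chain were at 1 CPM or more in all 5 libraries. ATP5B, the catalytic beta subunit of ATP synthase, was at 1656, 1613 and 1625 CPM in siControl and 1561 and 1468 CPM in DMSO.

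Between the cultures, glycolysis as a whole was split: 6 of 25 tested were higher in DMSO and 6 in siControl (24.6% and 24% over all genes). With scaling by library totals the counts were 14 and 2, and without DMSO 3 only 3 were higher in siControl. HKDC1, a hexokinase-like protein, was at 4.29, 4.43 and 5.06 CPM in siControl and 22.1 and 22.1 CPM in DMSO (2.25 ± 0.16, edgeR adjusted p = 5.35e-08), and PFKFB4, which makes the activator of phosphofructokinase, at 42, 44.2 and 49.9 CPM in siControl and 88.8 and 99.95 CPM in DMSO (1.05 ± 0.11, edgeR adjusted p = 3.34e-06). Both were higher in DMSO and single-locus. PGAM1, phosphoglycerate mutase, was far lower in DMSO at 339.6, 357 and 369 CPM in siControl and 45.6 and 39.1 CPM in DMSO, but 44.6% of its words are unique. PDK4, the kinase that closes pyruvate entry to the TCA cycle, was at 96.4, 103 and 73.6 CPM in siControl and 13.3 and 17.7 CPM in DMSO (-2.56 ± 0.17, edgeR adjusted p = 1.56e-08), higher in siControl. Of 26 TCA genes tested 5 were higher in DMSO and 10 in siControl, against 10 and 5 with library totals, and 0 and 6 without DMSO 1. Without siControl 1, 2 and 3 in turn, 3, 1 and 1 were higher in DMSO. Of 40 respiratory chain genes 4 were higher in DMSO and 16 in siControl (median -0.21), against 14 and 11 with library totals (median 0.03). Without siControl 1 the number higher in DMSO was 8, and 1 without siControl 2 or DMSO 1. Among the 17 single-locus members the split was 3 and 3. UQCRH, a hinge subunit of complex III with 50.2% of words unique, was at 471, 540.4 and 467 CPM in siControl and 206 and 189 CPM in DMSO.

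Most gluconeogenesis genes were present: of 12, 9 were at 1 CPM or more in all 5 libraries and 2 were under 3 counts. Of 9 tested, 1 was higher in DMSO and 3 in siControl, beside 24.6% and 24% of all genes. The counts were 2 and 3 with library totals, and 0 and 2 in the fit of all 15 libraries. PCK1 (chromosome 20, 57561080 to 57568112, plus strand), which commits oxaloacetate to sugar synthesis and is known from liver and kidney, was at 66.7, 144 and 129 CPM in siControl and 49.3 and 56.8 CPM in DMSO. Both DMSO libraries were below each siControl library, siControl 1 lying nearest to them (-1.11 ± 0.22, edgeR adjusted p = 0.000979). The call was lost with the library labelled DMSO 2 included (-1.60) and in a fit of all 15 libraries (-1.13). PC, which feeds oxaloacetate, was at 98.5, 75.2 and 82.6 CPM in siControl and 37.1 and 50.8 CPM in DMSO (-0.97 ± 0.15, edgeR adjusted p = 9.04e-05), and PPARGC1A, a coactivator of the fasting program, at 7.53, 4.02 and 3.99 CPM in siControl and 1.11 and 1.79 CPM in DMSO (-1.82 ± 0.34, edgeR adjusted p = 0.000471). Both were higher in siControl. The mitochondrial isozyme PCK2 was at 16.7, 15 and 13.5 CPM in siControl and 18.2 and 20.4 CPM in DMSO (0.36 ± 0.15, edgeR adjusted p = 0.0565), and FBP1 was low at 2.35 to 6.57 CPM. G6PC and G6PC2, the glucose phosphatases of liver and islet, were under 3 counts, and the widespread G6PC3 was at 51.3 to 71.2 CPM.

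The integrated stress response and cholesterol synthesis lists held more genes higher in DMSO than in siControl. SLC7A11, the cystine importer, was at 2.67, 5.86 and 5.7 CPM in siControl and 22.6 and 21.6 CPM in DMSO (2.19 ± 0.22, edgeR adjusted p = 2.15e-06; 86.5% of words unique). SLC7A5, which imports large neutral amino acids, was at 208, 206 and 259 CPM in siControl and 433 and 334 CPM in DMSO (0.77 ± 0.13, edgeR adjusted p = 0.00025), and PHGDH, the entry enzyme of serine synthesis, at 111, 107 and 107 CPM in siControl and 165 and 150.4 CPM in DMSO (0.53 ± 0.10, edgeR adjusted p = 0.000519). These 3 were higher in DMSO without overlap. Of 36 genes of the integrated stress response tested, 16 were higher in DMSO and 4 in siControl (median 0.38), beside 24.6% and 24% of all genes. The counts were 23 and 1 with library totals, and 2 were higher in siControl without DMSO 1. In a fit of all 15 libraries the counts were 1 and 0, the treated libraries then entering the spread. Replicate 2 of SBI-477, whose label is in doubt with that of DMSO 2, stayed in its labelled group in that fit. ATF4, the response's own transcription factor, was at 277, 346 and 277 CPM in siControl and 334 and 297 CPM in DMSO, with overlap (0.06 ± 0.12, edgeR adjusted p = 0.695). The same did not hold for the unfolded protein response, where of 20 genes tested 2 were higher in DMSO and 7 in siControl. For heat shock the counts were 2 and 5 of 14 tested. With library totals they were 4 and 5 for the former and 6 and 3 for heat shock. Of 25 genes of cholesterol synthesis 12 were higher in DMSO and 5 in siControl (median 0.25). The number higher in DMSO was 7 without DMSO 3 and 3 in the fit of all 15 libraries. The number higher in siControl was 1 without DMSO 1, 2 without siControl 1 and 3 without siControl 2 or DMSO 3. EBP, a sterol isomerase, was at 60.4, 50.5 and 52 CPM in siControl and 113 and 106 CPM in DMSO (1.00 ± 0.11, edgeR adjusted p = 4.45e-06).

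Between the cultures, 3348 genes (24.6% of 13602) were higher in DMSO and 3266 (24%) in siControl, and 48.6% were called in all. With scaling by library totals, which moves the median of all genes from 0.01 to 0.25, the counts were 5604 and 1912, so 74.6% of calls were higher in DMSO against 50.6%. A called difference of at least 2-fold was seen for 2139 genes (15.7%; 7.93% higher in DMSO and 7.8% in siControl). Among 7197 single-locus genes 3323 (46.2%) were called, 1782 (24.8%) higher in DMSO and 1541 (21.4%) in siControl, and 871 (12.1%; 6.29% and 5.81%) were called with at least 2-fold. Over all tested genes the groups' libraries did not overlap for 9161 (67.4%). Without DMSO 1, 2117 genes were higher in DMSO and 2211 in siControl. Single-locus genes differed by length: over 5 equal groups from the shortest to the longest transcripts the median was 0.10, 0.13, 0.04, -0.01 and -0.12. The part of length in single differences was not tested. In the fit of all 15 libraries, which kept replicate 2 of SBI-477 in its labelled group despite the doubt, 5098 genes were called. Among called genes named here, FTL, KRT7, KRT8, KRT18, LDHA, FGB, PCK1, ACLY, MXD1, SLC7A11, SLC7A5, PHGDH, MET, EREG, HBEGF, VEGFA, PTX3, IFIT1, IL6, CTGF, ITGB4 and BMP4 lost the call there.

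A retinoid enzyme, a peptide receptor and a lectin were among the single-locus protein genes with the largest differences towards DMSO. RPE65, the retinoid isomerase of the eye, was at 0.286, 0.167 and 0.143 CPM in siControl and 10.8 and 11.8 CPM in DMSO, under the 3-count floor in siControl 2 and 3. GRPR, the receptor for gastrin-releasing peptide, was at 1.24, 3.43 and 3.14 CPM in siControl and 29.8 and 40.5 CPM in DMSO (3.71 ± 0.25, edgeR adjusted p = 1.9e-08). CLEC2D, a lectin ligand of natural killer cells, was at 6, 6.78 and 5.63 CPM in siControl and 64.8 and 52.5 CPM in DMSO (3.25 ± 0.15, edgeR adjusted p = 2.15e-10). In each the DMSO libraries lay several fold above all siControl libraries, and only genes without overlap were eligible. IL13RA2, a decoy receptor for interleukin 13, was at 16, 32.3 and 24.2 CPM in siControl and 108 and 113 CPM in DMSO (2.18 ± 0.18, edgeR adjusted p = 2.76e-07). The remaining leaders were IGFN1, NAV3, CCDC7, PABPC1L, PRSS22, NFKBID, HKDC1 and MPP3, with differences of 4.37 (IGFN1; 5.98 without siControl 3) to 2.24 (MPP3).

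A cytokine, a complement protein and a chemokine were among the single-locus protein genes with the largest differences towards siControl. TNFSF18, a T cell costimulator, was at 39.7, 52.2 and 40.3 CPM in siControl and 3.22 and 5.16 CPM in DMSO (-3.40 ± 0.20, edgeR adjusted p = 5.35e-09). C3, the central complement protein, was at 162, 192 and 117 CPM in siControl and 11.4 and 20.3 CPM in DMSO (-3.31 ± 0.24, edgeR adjusted p = 5.01e-08), and CXCL6, a neutrophil-attracting chemokine, at 51, 119.9 and 64 CPM in siControl and 8.97 and 9.77 CPM in DMSO (-3.07 ± 0.28, edgeR adjusted p = 6.87e-07). In all of these the lowest siControl library was above the highest DMSO library, which the rule for choosing them required. DMBT1, a mucosal defence glycoprotein, was at 217, 279 and 183 CPM in siControl and 24.5 and 34.6 CPM in DMSO (-2.94 ± 0.19, edgeR adjusted p = 1.27e-08). SUCNR1, the succinate receptor, was at 131, 154 and 126 CPM in siControl and 15.7 and 27.1 CPM in DMSO (-2.68 ± 0.19, edgeR adjusted p = 4.15e-08). PTGS1, MUC5B, FGA, SMOC1, AGR2, DACT2 and TP63 completed the 12, with differences of -3.09 (PTGS1; -4.11 without DMSO 3) to -2.65 (TP63).

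**Figure D4:**
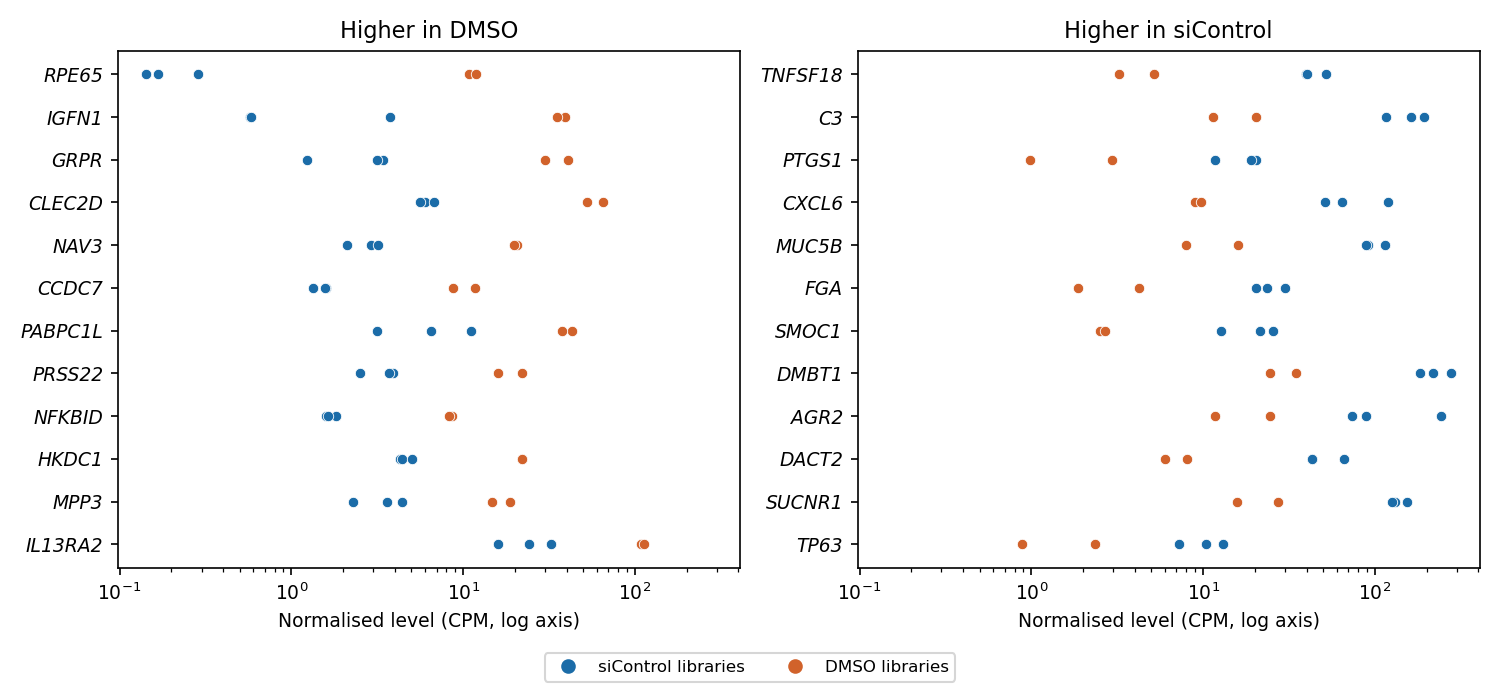
Level in CPM (log axis) of the 12 single-locus protein genes with the largest called difference in each direction, 1 point per library (siControl blue, DMSO orange). In each row the groups do not overlap, because only such genes were eligible. RPE65 runs from 0.143 CPM in siControl 3 to 11.8 CPM in DMSO 3.

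Mitotic and DNA replication genes were higher in DMSO nearly throughout. Of 28 mitotic genes 26 were higher in DMSO and 0 in siControl (median 0.82), and 17 of 19 single-locus members were. Under every alternative run over all genes the count was 21 to 27. AURKB, the kinase of the chromosomal passenger complex, was at 12.6, 13.1 and 15 CPM in siControl and 50.3 and 44.4 CPM in DMSO (1.79 ± 0.13, edgeR adjusted p = 4.68e-08). CCNB1, the mitotic cyclin, was at 193, 190.2 and 209 CPM in siControl and 454 and 401 CPM in DMSO (1.10 ± 0.11, edgeR adjusted p = 1.05e-06), and TPX2, a spindle factor, at 129.9, 124 and 146 CPM in siControl and 305 and 268 CPM in DMSO (1.09 ± 0.11, edgeR adjusted p = 1.69e-06). All DMSO values lay above all siControl values for these genes, and the 2 members not called were CENPE (0.18 ± 0.12) and HMMR (-0.14 ± 0.11). Of 26 DNA replication genes 23 were higher in DMSO and 0 in siControl (median 0.73), and the count was 13 in the fit of all 15 libraries. RFC4, a subunit of the clamp loader, was at 23.6, 27.3 and 29 CPM in siControl and 82.8 and 65.9 CPM in DMSO (1.47 ± 0.13, edgeR adjusted p = 4.05e-07), and MCM7, a subunit of the replicative helicase, at 244, 244 and 289 CPM in siControl and 556 and 463 CPM in DMSO (0.97 ± 0.12, edgeR adjusted p = 1.13e-05). PCNA, the clamp itself, was at 244, 256 and 261 CPM in siControl and 357 and 270.3 CPM in DMSO, with no overlap, and did not pass (0.30 ± 0.12, edgeR adjusted p = 0.0533). E2F1, which drives S-phase genes, was higher in DMSO at 29.1, 24.1 and 32.4 CPM in siControl and 76.8 and 66.6 CPM in DMSO (1.32 ± 0.13, edgeR adjusted p = 1.38e-06). CDKN1B, the cell cycle inhibitor p27, was higher in siControl at 66.2, 64.3 and 49.9 CPM in siControl and 24.5 and 26.3 CPM in DMSO (-1.25 ± 0.14, edgeR adjusted p = 4.14e-06). Replication-dependent histone genes, also of S phase, went the other way: of 8 tested 0 were higher in DMSO and 6 in siControl (median -1.23), and 2 of 9 with the library labelled DMSO 2 included. HIST1H2AC, a histone H2A gene, was at 4.1, 4.18 and 2.64 CPM in siControl and 0.979 and 0.997 CPM in DMSO. These messages end without a long poly(A) tail. Of 6 non-coding RNAs without such tails, none single-locus, 4 were higher in DMSO and 0 in siControl (median 0.90), 2 and 0 without siControl 2 or either DMSO library and 2 and 2 without siControl 3. The part of library make-up in the cell cycle difference was not tested.

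Most antigen presentation genes were higher in siControl. Of 19 tested 2 were higher in DMSO and 13 in siControl (median -0.69), and 5 and 11 with scaling by library totals. The number higher in DMSO was 1 with any library but siControl 3 left out. B2M, the light chain of class I molecules, was at 1969, 2000.3 and 1679 CPM in siControl and 752 and 827 CPM in DMSO (-1.26 ± 0.13, edgeR adjusted p = 2.26e-06), and CD74, the class II invariant chain, at 282, 343 and 291 CPM in siControl and 120.5 and 175 CPM in DMSO (-1.05 ± 0.15, edgeR adjusted p = 4.78e-05). Both are single-locus, while HLA-B, with 60.0% of words unique, was also higher in siControl (-1.59 ± 0.15, edgeR adjusted p = 1.29e-06). Of 27 interferon response genes 2 were higher in DMSO and 10 in siControl (median -0.30, or -0.06 with library totals). IFIT1, which binds foreign RNA, was at 20.9, 17.7 and 16.2 CPM in siControl and 6.73 and 8.86 CPM in DMSO (-1.23 ± 0.18, edgeR adjusted p = 6.33e-05), and IFNB1 itself was under 3 counts. The number of these higher in DMSO was 0 without DMSO 1 and 1 without siControl 1, siControl 3 or DMSO 3.

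More of the NF-kB targets and cytokines were higher in siControl than in DMSO, and the balance turned with scaling by library totals. CXCL8, the chemokine interleukin 8, was at 37.2, 96 and 50.6 CPM in siControl and 8.75 and 12.2 CPM in DMSO (-2.56 ± 0.30, edgeR adjusted p = 8.97e-06), with siControl 2 highest, and IL6 was at 12.5, 16.1 and 8.98 CPM in siControl and 3.41 and 4.52 CPM in DMSO (-1.66 ± 0.25, edgeR adjusted p = 7.1e-05). Both were higher in siControl, where LIF, a cytokine of the same family as IL6, was lower, at 32.1, 44.8 and 44.7 CPM in siControl and 134 and 128 CPM in DMSO (1.68 ± 0.13, edgeR adjusted p = 1.18e-07). Of 21 NF-kB targets and cytokines tested 2 were higher in DMSO and 10 in siControl (median -0.35), beside 24.6% and 24% of all genes. With library totals 6 were higher in DMSO and 5 in siControl, and without siControl 2 the counts were 4 and 7 (median -0.09). The number higher in siControl was 6 without DMSO 1 and 5 in the fit of all 15 libraries, and the median was -0.19 without DMSO 3. TNF was under 3 counts.

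**Figure D5:**
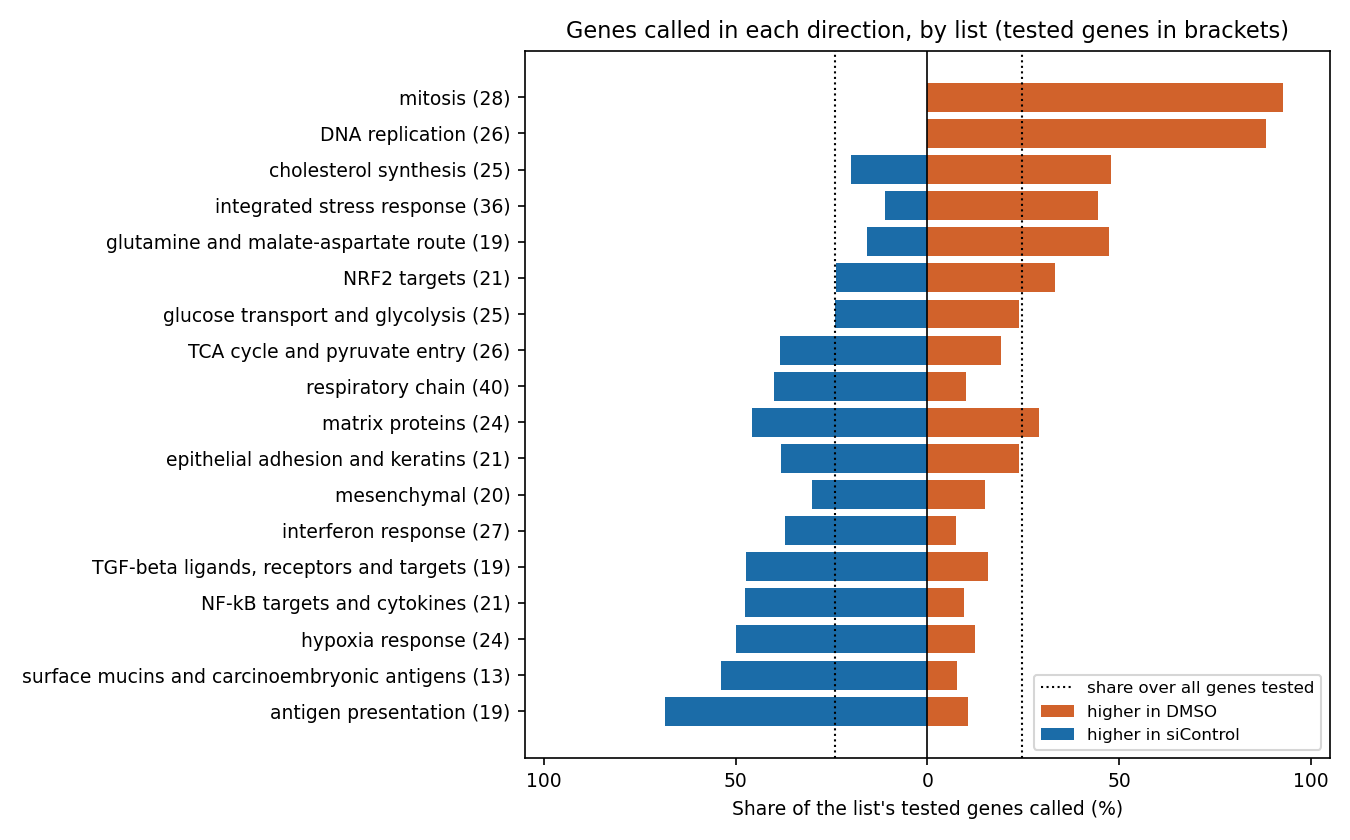
Share of each list's tested genes that were called higher in DMSO (orange, to the right) or in siControl (blue, to the left), with dotted lines at the shares over all genes tested (24.6% and 24%). Mitosis reaches 26 of 28 genes on the right and antigen presentation 13 of 19 on the left.

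Matrix and TGF-beta genes changed in both directions. FN1, fibronectin, the most abundant matrix gene per length, was at 2825, 2808 and 2409.6 CPM in siControl and 559.8 and 1308 CPM in DMSO (-1.53 ± 0.25, edgeR adjusted p = 0.000178). It was higher in siControl and differed by more than 2-fold between the DMSO libraries (-2.27 without DMSO 3). COL4A5, a basement membrane collagen, was at 507, 581 and 539.7 CPM in siControl and 169 and 222 CPM in DMSO (-1.48 ± 0.13, edgeR adjusted p = 5.53e-07), and AGRN, the proteoglycan agrin, at 480.2, 395 and 487 CPM in siControl and 200.4 and 211 CPM in DMSO (-1.15 ± 0.12, edgeR adjusted p = 2.73e-06), both higher in siControl. Of 24 matrix genes 7 were higher in DMSO and 11 in siControl (median -0.27), beside 24.6% and 24% of all genes, and with library totals the counts were 9 and 9 (median -0.02). The median was -0.09 without DMSO 1 and -0.56 without DMSO 3. TGFB2, a ligand, was higher in siControl at 304, 273 and 276 CPM in siControl and 123 and 130.1 CPM in DMSO (-1.18 ± 0.11, edgeR adjusted p = 6.97e-07; 73% of words unique). Of 19 TGF-beta genes 3 were higher in DMSO and 9 in siControl (median -0.35). The balance turned with library totals (7 and 5), the counts were 3 and 5 without DMSO 1, and the median was -0.18 without siControl 1 or DMSO 1. Of 16 genes of WNT, Hippo and Notch output tested 4 were higher in DMSO and 6 in siControl (median -0.16), against 6 and 2 with library totals, 5 and 4 without siControl 1 and 4 and 1 without DMSO 1. CYR61, CTGF and ANKRD1, known targets of the Hippo effector YAP, were higher in DMSO (1.09 ± 0.12, 0.94 ± 0.11 and 1.09 ± 0.14, edgeR adjusted p 5.14e-06, 8.67e-06 and 2.25e-05). DLL1, a Notch ligand, was higher in siControl at 34.1, 27.4 and 30.3 CPM in siControl and 8.81 and 12.5 CPM in DMSO (-1.53 ± 0.17, edgeR adjusted p = 4.12e-06).

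The secreted mucins MUC6 and MUC5B were higher in siControl. MUC6 was at 48.4, 45.2 and 65.6 CPM in siControl and 6.51 and 11.4 CPM in DMSO (-2.58 ± 0.22, edgeR adjusted p = 2.6e-07) and MUC5B at 90.7, 89.3 and 115 CPM in siControl and 7.99 and 15.9 CPM in DMSO (-3.05 ± 0.22, edgeR adjusted p = 5.92e-08). MUC16, the carrier of the CA125 antigen, was at 8.1, 5.44 and 5.56 CPM in siControl, with no count in DMSO 1 and 0.088 CPM in DMSO 3, which is 3 counts. Of 13 surface mucin and carcinoembryonic antigen genes tested 1 was higher in DMSO and 7 in siControl (median -0.48), or 2 and 4 with library totals (median -0.24). Without DMSO 1 the counts were 2 and 4, without DMSO 3 the median was -1.06, and without siControl 1 the number higher in DMSO was 3. Of 24 hypoxia genes 3 were higher in DMSO and 12 in siControl (median -0.48), beside 24.6% and 24% of all genes, and 5 and 9 with library totals (median -0.24). P4HA1, which hydroxylates collagen, was at 152, 204 and 167 CPM in siControl and 80.5 and 86.5 CPM in DMSO (-1.07 ± 0.13, edgeR adjusted p = 9.72e-06). VEGFA, the angiogenic factor on the same list, was higher in DMSO at 30.3, 55.6 and 49 CPM in siControl and 79.6 and 77.3 CPM in DMSO (0.79 ± 0.17, edgeR adjusted p = 0.00173), with siControl 1 lowest.

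Growth factor signalling genes were present in part. Of 21 genes of EGFR ligands and growth factor receptors 13 were at 1 CPM or more in all 5 libraries. BTC, NRG1 and FGFR2 were under 3 counts. Of 15 tested, 4 were higher in DMSO and 5 in siControl, beside 24.6% and 24% of all genes. The counts were 6 and 2 with library totals, and 1 and 4 in the fit of all 15 libraries. The receptors EGFR and MET were at 85.6 to 127 and 204 to 277 CPM. Among EGFR ligands, EREG was at 119, 141 and 130.4 CPM in siControl and 210.4 and 209.9 CPM in DMSO (0.68 ± 0.10, edgeR adjusted p = 0.000102) and HBEGF at 11.5, 7.95 and 10.6 CPM in siControl and 21 and 21.5 CPM in DMSO (1.08 ± 0.16, edgeR adjusted p = 9e-05), both higher in DMSO. AREG was higher in siControl at 27.7, 22.4 and 19.2 CPM in siControl and 8.66 and 8.39 CPM in DMSO (-1.44 ± 0.17, edgeR adjusted p = 8.89e-06). Genes of ERK output went both ways: DUSP4, an ERK phosphatase, was at 315, 291 and 280.0 CPM in siControl and 154 and 185 CPM in DMSO (-0.81 ± 0.12, edgeR adjusted p = 5.22e-05), higher in siControl, and FOSL1, an AP-1 subunit induced by ERK, at 25.2, 19.8 and 25.9 CPM in siControl and 81.6 and 63.2 CPM in DMSO (1.60 ± 0.14, edgeR adjusted p = 4.06e-07; 90.3% of words unique), higher in DMSO. Of 20 ERK output genes tested 5 were higher in DMSO and 3 in siControl, near or below the 24.6% and 24% of all genes. The first count was 3 without siControl 2, siControl 3 or DMSO 1 and 2 without DMSO 3, and 10 with library totals.

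Libraries of 1 group differed little from each other at most genes. Over 9582 genes of at least 10 CPM in siControl, the median range between the 3 libraries was 0.23 on the log2 scale, and 67 genes ranged over 2-fold or more. Over 9547 genes in DMSO the median gap between replicates 1 and 3 was 0.12, and 9 genes differed by 2-fold or more. The bone morphogenetic protein BMP4 was at 31.6, 6.61 and 10.4 CPM in siControl, high in replicate 1 like AGR2, and the groups overlapped. Its call between the groups (-1.08 ± 0.43, edgeR adjusted p = 0.0491) was lost without siControl 1, where the difference was -0.18, and without either DMSO library. RN7SL1 and RN7SL2, signal recognition particle RNAs without long poly(A) tails and with almost no unique words, were at 23.6, 7.36 and 5.06 and 32.6, 12.7 and 5.99 CPM in siControl. In DMSO, LRP1, an endocytic receptor, was at 12.6 and 28.9 CPM, ITGB4, the integrin of hemidesmosomes, at 6.82 and 15.5 CPM and RARRES1, a retinoid-induced gene, at 21.4 and 51 CPM. Between the groups all 3 were higher in siControl, and without DMSO 3 the differences were -2.62, -1.52 and -3.01, while the ITGB4 call was lost without siControl 1 or DMSO 1. These genes were lower in DMSO 1 than in DMSO 3, as FN1 and FGG were. RNA18S5, a ribosomal RNA entry, was at 80.6 and 0.0293 CPM in DMSO.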

How the data were processed

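The deposited tables give raw counts per gene symbol, per the file headers, and the drug table also holds the authors' log2 fold change of SBI-477 against DMSO, per its file header. Libraries were made from 500 ng of RNA with the Kapa system and read as paired 25-base reads, per the labels' protocols. The submitters' processing notes name TopHat2 2.1.0 and HTSeq 0.6.1, bcl2fastq 1.8.4, edgeR (version not stated) and the builds hg38 and mm10. How reads with several places were treated, the gene annotation and strand handling are not given in the sources used here. Whether both tables were counted alike was not tested.

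From the counts, CPM and TMM factors were computed with edgeR 4.0.16 in R 4.3.3, and siControl 1 to 3 were compared with DMSO 1 and 3 by its quasi-likelihood test after its default filter on low counts, with Benjamini-Hochberg adjustment over 13602 genes. Gene lengths, positions and 25-base words came from the GENCODE annotation on GRCh38, matched to 24659 of 26485 symbols, and lengths and words are those of annotated transcripts, not of the authors' gene models. Promoter and hairpin sequences came from RefSeq on GRCh38.p14. Of 5 promoters looked for, 3 matched, and none was found in the table for PCK1 and C3. Tested on simulated data for this comparison (13602 genes), the test recovered 97 of 100 genes changed 2-fold and 100 of 100 changed 4-fold. False calls among the unchanged genes numbered 20. The changed genes had a mean of at least 4 CPM, so recovery at lower levels was not tested. They were also far fewer than the 48.6% of genes called in the data. Alternatives were other scalings, filters and DESeq2 1.42.0, the library labelled DMSO 2 included, all 15 libraries, thinned DMSO counts, a replicate block and each library left out. Figures were drawn with matplotlib 3.10.9 in Python 3.11.15.

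The 53 lists (1047 genes) and the members were chosen with earlier results of these data known. Named genes were the 4 markers, the 15 highest per length, the 12 largest called differences in each direction with at least 4 CPM and no overlap, up to 4 members per list by level and by adjusted p, members under 3 counts, the 6 most variable genes per group, and all members of 4 lists. The share of unique words, and the leaders restricted by it, were added after the data were seen. CDH1, CDH2, CENPE, CHRNA4, CSF3, DDX5, EEF1G, EPCAM, HMMR, RPS27A and ZEB1 were named after their values were seen. Some genes that these rules name are not reported here.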

Additional observations from a re-analysis of the deposited data

How the results depend on the processing

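With scaling by library totals alone, 5604 genes were higher in DMSO and 1912 in siControl, against 3348 and 3266 with TMM, and the median of all genes moved to 0.25. Leaving out 1 library gave 2117 to 3280 genes higher in DMSO and 2211 to 3170 higher in siControl, the lowest of each without DMSO 1. Testing only single-locus genes gave 1585 and 1547, from fewer genes tested, an alternative chosen after seeing the data. With the replicate number as a block, 2036 were higher in DMSO and 2213 in siControl, and 64% of calls were kept. The numbers were not treated as a pairing, because nothing in the labels ties them and the differences between replicates 1 and 3 in siControl and in DMSO correlated at -0.205 across genes; the cause of the lower count was not tested. The other alternatives, upper quartile and RLE scaling, DESeq2, other filters, the library labelled DMSO 2 included, all 15 libraries and thinned DMSO counts, kept both counts within 1.5-fold. The 11847 expressed genes numbered 11711 to 12529 and the 9460 omitted genes 9296 to 10259 under the alternatives run for them.

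Of 394 named genes tested, 300 were called, 212 kept direction and call under every setting that gave a value, 49 lost the call without some library, and none reversed. With 2 DMSO libraries, 1 of them left out leaves a lone library, which is then assumed to vary like siControl. The siControl libraries hold fewer counts than the DMSO libraries, so genes near 1 CPM rest on few counts there. Intervals and floors cover counting error only. Experiment, transfection, solvent and depth cannot be told apart.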
